A study of Neurospora crassa with 12 samples.

Results

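Among the genes that *Neurospora crassa* downregulates when a spore starts to grow, a minority came back by the time the first hyphal branch appeared. These returning genes were picked from mean CPM (a gene's counts scaled to the total of its library) at 4 stages of germination. A gene was taken when its mean was at least 5 CPM at 15 min, at most 1 part in 3 of that level at 120 min, and at least 2 times the 120 min level at 360 min. The 360 min mean also had to reach 2 CPM and lie above 1 part in 8 of the 15 min mean, and genes of the predicted secondary metabolite clusters (SMCs) were left out. The rule kept 70 of the 10592 genes in the table, and the 240 min stage played no part in it. Of 482 genes that met the criteria at 15 and 120 min, the 70 returning genes made up 14.5%. The other 412 failed at least 1 of the 360 min criteria and are called the genes that stayed low. Some of them still rose. The 360 min mean of *acd-2* was 1.98 times that at 120 min, and NCU07257 went from 2.06 CPM at 120 min to 8.84 CPM at 360 min.

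The libraries came from conidia of the *mat A* wild-type Oak Ridge strain FGSC2489, spread on cellophane over potato dextrose agar (PDA) at 25°C under constant light, as the labels and methods give it. Elsewhere the study lists a higher temperature for PDA. There were 3 libraries at each of 15, 120, 240 and 360 min after inoculation, the times of fresh conidia, first polar growth, germ tube elongation and first branching. All stages share the strain, medium and light, so time after inoculation is the only difference the labels give between groups. Stages were sampled when most conidia had reached them, so each library mixes cells at several steps, and per the methods a biological replicate was the tissue from several plates gathered in a single collection. Neither labels nor methods tell whether replicates came from separate spore batches or days, so p-values measure the spread between these libraries.

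Conidia are the asexual spores by which the fungus spreads. They hold stored mRNA, and on germination they swell, fix an axis of polarity, extend a germ tube and then branch into a hyphal network. Light is a strong input at these steps in *N. crassa*: the white collar complex, a blue-light photoreceptor and transcription factor, turns on its targets, and VIVID, the protein of *vvd*, is a smaller photoreceptor that dampens the complex again. Chitinases and cell wall proteins remodel the wall as cells grow.

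The libraries held 51555784 to 84946272 counts, and a count of 0 allows up to 3 counts, which is 0.0353 to 0.0582 CPM and covers counting error only. Among all library values of the 70 genes, 1 was a count of 0. Among the markers, 8 conidial genes summed to 6013 to 6538 CPM at 15 min, 617 to 673 CPM at 120 min, 680 to 721 CPM at 240 min and 1016 to 1197 CPM at 360 min, with *con-13* at 0 in every 240 min library. Most of the later sum was *ccg-6*, with 618, 673 and 1074 CPM on average at 120, 240 and 360 min, while *eas*, *con-6* and *con-8* averaged at most 15.6 CPM from 120 min on; the summed level was thus higher at 360 min, like the returning genes, and its part in their return was not tested. For 9 genes of growing hyphae the sums ran from 1244 to 1365 CPM at 15 min and from 3849 to 4209 CPM at 360 min. At 360 min, 6 conidiophore genes summed to 110 to 142 CPM, against 204 to 217 CPM at 15 min. A set of 9 genes of protoperithecia and perithecia summed to 373 to 399 CPM at 15 min, 200 to 203 CPM at 120 min, 239 to 244 CPM at 240 min and 303 to 353 CPM at 360 min, a course that moved with the returning genes. The largest part of the 360 min sum was *pp-1*, with 70.5, 94.3, 135 and 202 CPM on average at the 4 stages, while *poi-2* averaged 95.9 CPM at 15 min and at most 0.0738 CPM later. The part of these genes in the return was not tested. Replicate 3 of 360 min and replicate 2 of 15 min stood apart, since genes of ribosomal RNA took 11.7 and 10.2% of their counts, against 1.98 to 5.53% in the other 10 libraries. Among protein-coding genes, 360 min replicate 3 also differed more from replicates 1 and 2 of its stage (chi-square per gene 116 and 96.1) than those did from each other (30.3).

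Over the 70 genes, the median of the stage means was 18.1 CPM at 15 min, 2.68 CPM at 120 min, 3.57 CPM at 240 min and 9.66 CPM at 360 min. The level at 15 min was 3.10 to 31.8 times that at 120 min (median 5.52), and the level at 360 min was 2.01 to 33.2 times that at 120 min (median 2.94). These ranges follow from the rule and are given without a test. In bulk RNA, fewer cells of a type and less RNA per cell cannot be told apart. At 360 min the genes stood at a median of 53.3% of their 15 min level: 31 were under 50% of it, 27 lay between that and the full level, and 12 were above it. In 5 of those 12 (*chit-1*, NCU00729, NCU05648, NCU08786 and NCU16460) every 360 min library was above every 15 min library. These levels use library totals, and the lowest of the 12 stood at 106%. TMM factors were 0.888 to 0.950 at 15 min and 1.12 to 1.17 at 360 min, so TMM scaling would lower these percents.

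**Figure D1:**
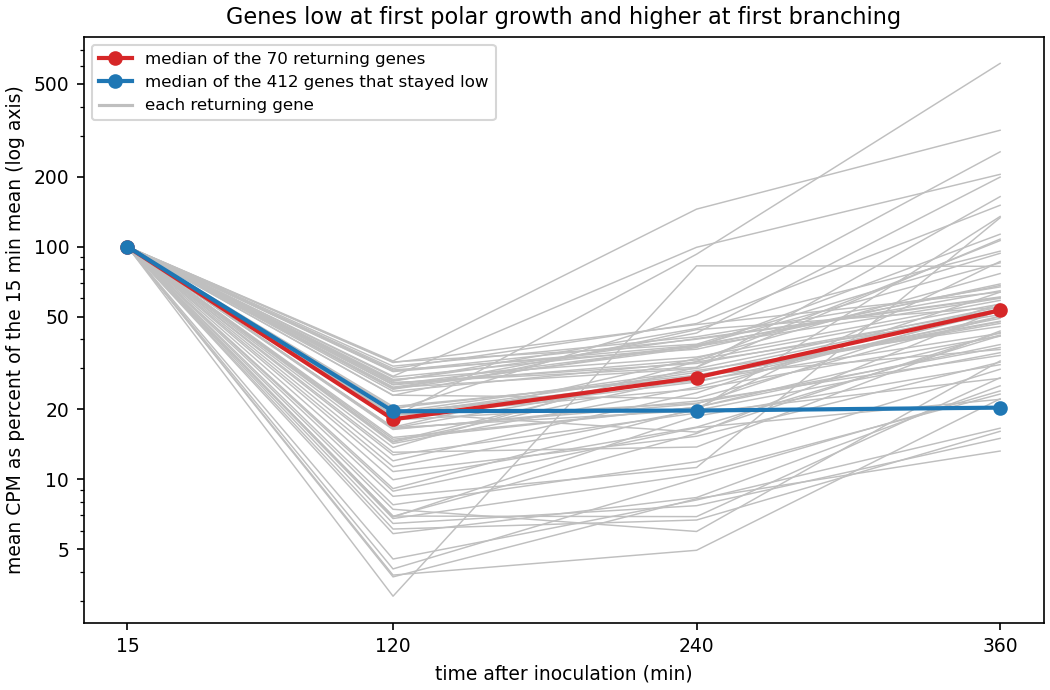
Mean CPM of each of the 70 returning genes (gray lines) as a percent of its 15 min mean, on a log axis, against time after inoculation in min. The median of the returning genes (red) stood at 18.1% at 120 min, 27.4% at 240 min and 53.3% at 360 min. That of the 412 genes that failed a 360 min criterion (blue, called stayed low) stood at 19.6, 19.8 and 20.3%.

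The stage at 240 min was not used by the rule, but each stage it is compared with was. One side of every comparison was therefore chosen low (120 min) or high (15 and 360 min), and the calls describe the genes rather than test the return. At 240 min 66 of the 70 genes had a higher mean than at 120 min. By edgeR's quasi-likelihood test over 8118 genes, 37 of the 70 were upregulated at 240 min relative to 120 min (adjusted p under 0.05), a share of 52.9%, whereas 12.6% of all tested genes were called higher. None was downregulated (0 also at an unadjusted p under 0.05 and 0 with DESeq2), where 9.73% of all tested genes were called lower. Of the 412 genes that stayed low, 46 were upregulated at 240 min and 55 downregulated. They met the same 15 and 120 min criteria but were chosen for failing a 360 min criterion, so they are no independent control. The median log2 fold change was 0.50 over the returning genes, -0.01 over the genes that stayed low, and 0.00 over all tested genes.

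At 360 min 59 of the 70 genes were upregulated relative to 240 min, against 20.7% of all tested genes, and 0 were downregulated (0 unadjusted and 0 with DESeq2), against 21.1% of all tested genes. Of the genes that stayed low, 50 were upregulated and 85 downregulated, but they were chosen for failing a 360 min criterion, which partly fixes these counts. The median log2 fold change of the returning genes was 0.83, and the sizes of the 2 steps are not ranked, since the rule took genes for a high 360 min mean. Scaling the libraries by their totals in place of TMM moved these fold changes upward by a median of 0.20 on the log2 scale, and then 65 of the 70 genes and 41.5% of all tested genes were called higher. At 240 min 66 of the 70 genes, all chosen for a high 15 min mean, were lower than at 15 min, where 39.4% of all tested genes were lower and 43.7% higher, and 0 were higher (0 unadjusted and 0 with DESeq2). The 4 exceptions were NCU00729, NCU14047, NCU16460 and *chit-1* (log2 fold change -0.20, adjusted p = 0.21), and DESeq2 called *chit-1* (-0.34, adjusted p = 0.027) and NCU14047 (-0.50, adjusted p = 0.028) lower. With upper-quartile scaling in place of TMM, edgeR called 69 of the 70 genes lower, so most of these exceptions depended on the scaling.

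Of the 70 genes, 31 were upregulated in both intervals, 28 between 240 and 360 min alone, 6 between 120 and 240 min alone (*acd-1*, *ncw-3*, NCU06382, NCU07287, NCU14047 and NCU16460), and 5 in neither. The rule used 1 stage of each interval, and the same classes were not counted over all tested genes. This split therefore only describes the 70 genes. The share of the log2 difference between 120 and 360 min that was present at 240 min, with 0.1 CPM added to each mean, had a median of 0.36. Both ends of that difference were set by the rule, which partly fixes the shares, so they are a description. It was above 0.5 in 12 genes, between 0.25 and 0.5 in 40, between 0 and 0.25 in 14, and at or under 0 in 4.

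**Figure D2:**
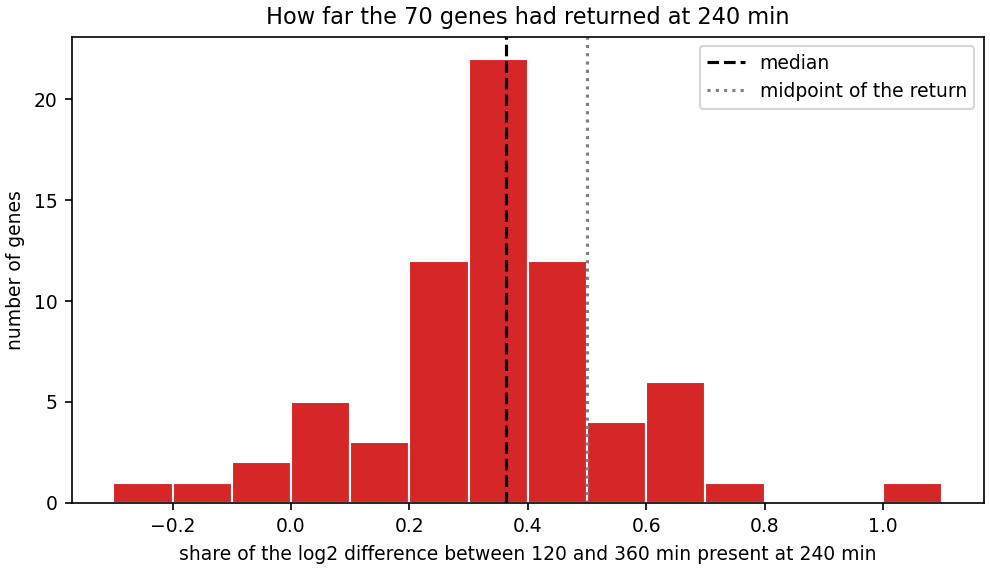
Number of genes by the share of the log2 difference between the 120 and 360 min means that was present at 240 min. The median (dashed line) was 0.36, and 12 of the 70 genes lay above the midpoint of 0.5 (dotted line).

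The photoreceptor gene *vvd* (NCU03967, chromosome VI, positions 2268533 to 2271812 of the NC12 assembly) made up 32.8% of the summed CPM of the 70 genes at 15 min and led them per kb of gene span at 360 min, with 187 CPM per kb. Its levels were 1299, 1165 and 1269 CPM at 15 min, 220, 250 and 232 CPM at 120 min, 345, 335 and 341 CPM at 240 min, and 576, 601 and 659 CPM at 360 min. The 4 stages did not overlap in any library. Relative to 120 min, *vvd* was upregulated at 240 min by 0.50 ± 0.06 (log2 fold change ± SE, adjusted p = 0.00012, edgeR), and relative to 240 min it was upregulated at 360 min by 0.64 ± 0.06 (adjusted p = 2.2e-05, edgeR). The blue light-induced gene *bli-3* (NCU07267) had 14.4, 13.1 and 14.1 CPM at 15 min, 2.92, 4.31 and 3.37 CPM at 120 min, 4.67, 5.29 and 5.52 CPM at 240 min, and 6.08, 10.4 and 11.7 CPM at 360 min. The rise at 360 min relative to 240 min (0.66 ± 0.19, adjusted p = 0.016, edgeR) was no longer called without 360 min replicate 3 (0.45, adjusted p = 0.069) or without 240 min replicate 1 (0.59, adjusted p = 0.063). NCU07266, which overlaps *bli-3* by 154 bp, averaged 203, 153, 129 and 110 CPM at 15, 120, 240 and 360 min, so the split of counts is uncertain.

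Among 18 tested genes of a list of light, clock and carotenoid genes, 6 had a 15 min mean at least 3 times that at 120 min. Of these, *nop-1* and *phy-2* were under 5 CPM at 15 min (3.18 and 0.326 CPM), and of *vvd*, *bli-3*, *wc-1* and *frq* the first pair met the rule. The clock gene *frq*, another target of the white collar complex, averaged 864 ± 24.5 CPM at 15 min, 73.8 ± 1.17 CPM at 120 min, 67.2 ± 2.86 CPM at 240 min and 63.8 ± 2.69 CPM at 360 min (SD, n = 3). It was downregulated at 360 min relative to 240 min, with a log2 fold change of -0.28 ± 0.05 (adjusted p = 0.001, edgeR), which was not called when libraries were scaled by their totals (-0.07, adjusted p = 0.26). For *wc-1*, a photoreceptor subunit of the complex, the libraries ranged from 98.1 to 184 CPM at 15 min, from 36.4 to 68.4 CPM at 120 min, from 34.0 to 79.1 CPM at 240 min and from 68.6 to 79.9 CPM at 360 min. Its 360 min mean was 49.1% of that at 15 min but 1.61 times that at 120 min, short of the rule, and it was called in neither later interval. Over the 18 genes, 6 were upregulated and 3 downregulated at 240 min relative to 120 min (6 and 1 with scaling by library totals), and 4 were upregulated and 3 downregulated at 360 min relative to 240 min (8 and 1 with scaling by library totals). Of all tested genes, 12.6% were called higher and 9.73% lower at 240 min relative to 120 min. At 360 min relative to 240 min the shares were 20.7 and 21.1% (41.5% higher with library totals). Whether the list differed from all tested genes was not tested. The difference between *vvd* and *frq* was not itself tested.

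*ccg-14* (NCU07787), a clock-controlled gene for a small secreted protein of the cerato-platanin family, was the single returning gene among 24 tested conidiation and spore genes, of which 13 had a 15 min mean at least 3 times that at 120 min. Its level was 68.4, 60.6 and 68.9 CPM at 15 min, 9.04, 11.8 and 11.8 CPM at 120 min, 12.2, 14.8 and 14.7 CPM at 240 min, and 20.9, 62.4 and 29.3 CPM at 360 min. All 360 min libraries were above all 240 min libraries, but replicate 2 was over 2 times the next. The log2 fold change at 360 min relative to 240 min was 1.21 ± 0.28 (adjusted p = 0.0041, edgeR) and 0.67 without that library (adjusted p = 0.0036). None of the other 12 met the rule. *ccg-9* came back to 3.03 times its 120 min mean but had 0.704 CPM at 15 min, under the limit of 5 CPM. *eas*, for the hydrophobin that coats conidia, averaged 3754 ± 159 CPM at 15 min, 9.32 ± 1.67 CPM at 120 min, 2.64 ± 0.21 CPM at 240 min and 5.72 ± 5.36 CPM at 360 min (SD, n = 3). *con-6* averaged 366 ± 16.0, 15.6 ± 3.60, 11.0 ± 0.58 and 8.35 ± 1.78 CPM at 15, 120, 240 and 360 min, and was downregulated at 360 min relative to 240 min (-0.60 ± 0.17, adjusted p = 0.012, edgeR). Of the 24 genes, 3 were upregulated and 1 downregulated at 360 min relative to 240 min (5 and 1 with scaling by library totals). Over all tested genes 20.7% were called higher and 21.1% lower (41.5% higher with library totals).

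*chit-1* (NCU02184, chromosome I), which codes for a chitinase, an enzyme that cleaves the chitin of the wall, had the highest ratio of 360 to 120 min of the 70 genes. It stood at 7.66, 6.23 and 7.67 CPM at 15 min, 0.993, 1.58 and 1.41 CPM at 120 min, 6.04, 7.70 and 6.26 CPM at 240 min, and 38.4, 53.6 and 40.1 CPM at 360 min. The 240 min libraries lay within the span of the 15 min libraries or next to it, and the 360 min libraries were 613% of the 15 min mean on average. The upregulation was 2.28 ± 0.17 at 240 min relative to 120 min (adjusted p = 4.5e-06, edgeR) and 2.52 ± 0.15 at 360 min relative to 240 min (adjusted p = 2.3e-06, edgeR). Of 10 genes named *chit* or *gh18*, 7 passed the filter on low counts, and *chit-1* was the one upregulated in either interval. At 360 min relative to 240 min, 2 were downregulated (2 upregulated and 1 downregulated with scaling by library totals). In that interval 20.7% of all tested genes were called higher and 21.1% lower (41.5% higher with library totals). *gh18-4*, of the same glycoside hydrolase family 18, also fell and stayed low, with 25.4 ± 1.22 CPM at 15 min, 0.488 ± 0.07 CPM at 120 min, 0.712 ± 0.22 CPM at 240 min and 0.399 ± 0.10 CPM at 360 min (SD, n = 3).

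Both returning cell wall protein genes came back in part. *acw-4* (NCU09263), for an anchored cell wall protein, had 23.9, 20.2 and 23.5 CPM at 15 min, 0.792, 0.962 and 1.03 CPM at 120 min, 1.31, 3.15 and 2.34 CPM at 240 min, and 4.90, 5.30 and 5.996 CPM at 360 min. It was upregulated at 240 min relative to 120 min (1.22 ± 0.25, adjusted p = 0.0047, edgeR) and again at 360 min relative to 240 min (1.07 ± 0.23, adjusted p = 0.0023, edgeR), and still stood at 24.0% of its 15 min mean. NCU09264, which overlaps *acw-4* by 121 bp, averaged 73.0, 103, 94.2 and 112 CPM at 15, 120, 240 and 360 min, so the split of counts is uncertain. *ncw-3* (NCU07817), for a nonanchored cell wall protein, had 16.8, 15.1 and 17.8 CPM at 15 min, 1.71, 1.45 and 1.26 CPM at 120 min, 1.84, 3.49 and 2.98 CPM at 240 min, and 3.29, 4.05 and 3.65 CPM at 360 min. Its rise was called at 240 min relative to 120 min (0.86 ± 0.20, adjusted p = 0.0086, edgeR), and the 240 and 360 min libraries overlapped. Among 17 *acw* and *ncw* genes, 8 were upregulated and 0 downregulated at 240 min relative to 120 min, against 12.6 and 9.73% of all tested genes. At 360 min relative to 240 min, 9 were upregulated and 1 downregulated, against 20.7 and 21.1% of all tested genes. With scaling by library totals the counts were 12 and 0, where 41.5% of all tested genes were called higher. Of the 5 that had fallen at least 3-fold, *acw-12* and *ncw-6* ended at 2.21 and 7.34% of their 15 min means, and *acw-10*, which met every expression criterion, belongs to a predicted SMC.

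*inv* (NCU04265), for the invertase that splits sucrose, had 32.7, 30.5 and 27.9 CPM at 15 min, 3.53, 3.44 and 3.36 CPM at 120 min, 5.96, 5.98 and 6.11 CPM at 240 min, and 8.75, 12.2 and 10.9 CPM at 360 min. No 2 stages overlapped, and both later steps were called (0.77 ± 0.11, adjusted p = 0.00042, and 0.61 ± 0.10, adjusted p = 0.00048, edgeR). The span of *inv* lies wholly within that of NCU04264, which averaged 3.51, 9.64, 10.4 and 12.4 CPM at 15, 120, 240 and 360 min, so the split of counts between the pair is uncertain. *nmt-1* (NCU09345), of thiamine synthesis, averaged 93.7 ± 3.59, 19.0 ± 1.17, 26.3 ± 2.08 and 44.8 ± 7.60 CPM at 15, 120, 240 and 360 min (SD, n = 3), with both later steps called (0.43 ± 0.10, adjusted p = 0.0084, and 0.56 ± 0.10, adjusted p = 0.00067, edgeR). The thiamine gene *thi-4* averaged 7.81 ± 0.46, 27.7 ± 1.47, 29.9 ± 0.70 and 32.3 ± 1.91 CPM at the same stages, lowest at 15 min.

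For 3 genes of respiration and nitrate use the return was called only after 240 min. *aod-1* (NCU07953), for the alternative oxidase, which passes electrons to oxygen without pumping protons, had 18.4, 15.7 and 16.7 CPM at 15 min, 5.01, 5.80 and 4.19 CPM at 120 min, 6.15, 6.17 and 6.10 CPM at 240 min, and 8.93, 13.9 and 12.2 CPM at 360 min. *nuo14.8* (NCU00418), for a subunit of respiratory complex I, had 47.5, 41.1 and 44.4 CPM at 15 min, 3.07, 2.70 and 2.83 CPM at 120 min, 3.15, 3.62 and 3.48 CPM at 240 min, and 6.23, 7.53 and 6.20 CPM at 360 min. *nit-3* (NCU05298), for nitrate reductase, had 6.80, 6.01 and 5.54 CPM at 15 min, 1.04, 0.990 and 1.28 CPM at 120 min, 1.21, 1.34 and 1.35 CPM at 240 min, and 2.13, 2.35 and 2.28 CPM at 360 min. In each of the 3 genes every 360 min library was above every 240 min library. The log2 fold changes at 360 min relative to 240 min were 0.72 ± 0.14 for *aod-1* (adjusted p = 0.0012), 0.76 ± 0.09 for *nuo14.8* (adjusted p = 6.2e-05) and 0.59 ± 0.14 for *nit-3* (adjusted p = 0.0054, edgeR), and at 240 min relative to 120 min none of the 3 was called (adjusted p 0.21, 0.12 and 0.39).

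The 15 min level of *nuo14.8* was 15.5 times that at 120 min, while the ratio ran from 0.878 to 5.48 in the other 28 *nuo* genes. Its span overlaps that of NCU00419 by 329 bp, which averaged 257, 124, 113 and 108 CPM at 15, 120, 240 and 360 min. Of the 29 *nuo* genes, 14 were upregulated and 2 downregulated at 360 min relative to 240 min, and with scaling by totals 19 and 0. In this interval 20.7% of all tested genes were called higher and 21.1% lower, and with scaling by totals 41.5% were called higher. Of 5 *nit* genes, 3 (*nit-3*, *nit-4* and *nit-6*) were upregulated at 360 min relative to 240 min and 0 were downregulated, although *nit-4* and *nit-6* lost the call when single 240 or 360 min libraries were left out. With scaling by totals 5 were upregulated and 0 downregulated. *nit-6* lay near the floor, with 0.094, 0 and 0.076 CPM at 240 min and 0.33, 0.60 and 0.29 CPM at 360 min. Of 8 *aod*, *nde* and *ndi* genes, *aod-1* was the one that fell at least 3-fold between 15 and 120 min.

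All 3 *acd* genes fell at least 3-fold between 15 and 120 min, and all 3 were upregulated at 240 min relative to 120 min, by 0.91 ± 0.13 in *acd-1* (adjusted p = 0.00065), 0.43 ± 0.07 in *acd-2* (adjusted p = 0.0016) and 0.46 ± 0.09 in *acd-3* (adjusted p = 0.004, edgeR). In that interval 12.6% of all tested genes were called higher. *acd-1* (NCU02287) had 21.6, 19.8 and 18.7 CPM at 15 min, 5.31, 4.91 and 3.56 CPM at 120 min, 9.08, 7.70 and 9.64 CPM at 240 min, and 11.2, 11.5 and 10.3 CPM at 360 min. It reached 0.745 of its return by 240 min and met the rule. The gene *acd-2* just missed it, with a 360 min mean 1.98 times its 120 min mean, and *acd-3* had 8.54 ± 0.49 CPM at 360 min, against 30.8 ± 0.94 CPM at 15 min. At 360 min relative to 240 min *acd-2* was upregulated again (0.31 ± 0.07, adjusted p = 0.004, edgeR). In the same interval *acd-1* (0.11 ± 0.13, adjusted p = 0.52) and *acd-3* (0.07 ± 0.09, adjusted p = 0.6) were not called by edgeR, and 20.7% of all tested genes were called higher.

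**Figure D3:**
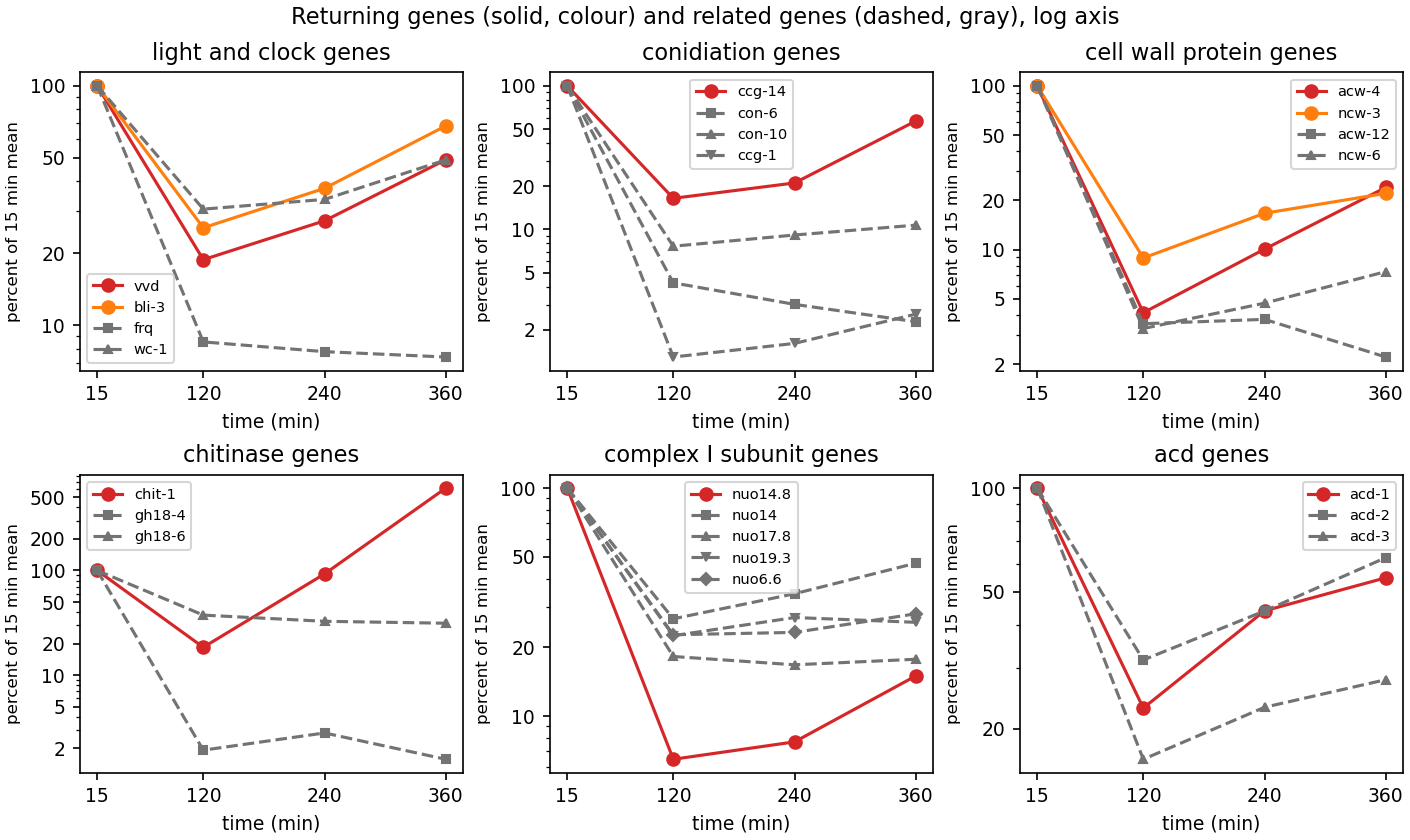
Mean CPM as a percent of the 15 min mean (log axis) against time in min, for returning genes (solid, colored) and related genes (dashed, gray). *vvd* and *ccg-14* climbed after 120 min while *frq* and *con-6* did not. *wc-1*, *con-10* and *ccg-1* stood between, with 360 min means 1.61, 1.40 and 1.99 times those at 120 min. None of these 3 genes was called in either later interval (edgeR). The ratio of *ccg-1* rested largely on 360 min replicate 3 (17.1 CPM), with the other 360 min libraries far lower. *chit-1* ended at 613% of its 15 min mean, and *nuo14.8* fell further than 4 other *nuo* genes.

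Most of the returning genes (58 of 70) have no symbol in the annotation, as is common in it. A symbol was given for 17.1% of them, against 17.7% of the genes that stayed low and 13.4% of all tested genes. Per kb of span at 360 min, NCU01829 (60.6 CPM per kb), NCU15828 (59.6), NCU01391 (43.9), NCU01830 (42.6) and NCU08786 (39.1) followed *vvd*. NCU01830 and NCU01829 lie close together on chromosome II (positions 2262620 to 2264382 and 2265232 to 2266407). NCU01830 had 240, 233 and 252 CPM at 15 min, 15.4, 17.1 and 17.5 CPM at 120 min, 40.6, 48.3 and 46.5 CPM at 240 min, and 73.2, 74.5 and 77.8 CPM at 360 min. NCU01829 had 158, 140 and 159 CPM at 15 min, 19.2, 24.9 and 22.0 CPM at 120 min, 40.6, 43.8 and 41.4 CPM at 240 min, and 63.0, 69.7 and 81.1 CPM at 360 min. In both, no 2 stages overlapped, and over 0.5 of the return was present at 240 min (0.66 in NCU01830 and 0.55 in NCU01829). The upregulation at 240 min relative to 120 min was 1.40 ± 0.07 for NCU01830 (adjusted p = 5.9e-07, edgeR) and 0.89 ± 0.09 for NCU01829 (adjusted p = 6.5e-05, edgeR). NCU01828, whose span holds that of NCU01829, had 17.0, 18.6, 17.1 and 19.6 CPM at the 4 stages, and the split of counts between the pair is uncertain.

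NCU07468 (chromosome I) had 292, 273 and 279 CPM at 15 min, 35.5, 36.6 and 35.4 CPM at 120 min, 55.8, 52.8 and 54.1 CPM at 240 min, and 72.1, 82.0 and 75.4 CPM at 360 min. The steps were 0.56 ± 0.04 at 240 min relative to 120 min (adjusted p = 8.6e-06, edgeR) and 0.29 ± 0.04 at 360 min relative to 240 min (adjusted p = 0.00029, edgeR), and the gene ended at 27.2% of its 15 min mean. NCU17113 and NCU00293 had similar courses at 177 ± 5.01, 28.9 ± 1.82, 38.3 ± 0.955 and 60.1 ± 7.30 CPM and at 113 ± 4.20, 27.0 ± 2.49, 36.0 ± 1.62 and 57.5 ± 3.88 CPM (SD, n = 3), and both were upregulated in both later intervals. NCU01391 averaged 55.8 ± 18.4 CPM at 360 min, against 30.3 ± 1.02 CPM at 240 min (0.68 ± 0.16, adjusted p = 0.0052, edgeR), with replicate 3 at 76.8 CPM and the others at 42.7 and 48.0 CPM. Its span of 1273 bp shares 1233 bp with NCU01390, which averaged 33.1, 24.9, 20.8 and 22.8 CPM at 15, 120, 240 and 360 min, so that its counts are uncertain too.

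Several genes overshot the level of fresh conidia. NCU08786 (chromosome III) had 22.0, 18.9 and 21.3 CPM at 15 min, 3.96, 4.54 and 3.82 CPM at 120 min, 9.65, 11.7 and 10.4 CPM at 240 min, and 39.6, 57.2 and 62.3 CPM at 360 min. It was upregulated by 1.33 ± 0.14 at 240 min relative to 120 min (adjusted p = 7e-05, edgeR) and by 2.12 ± 0.14 at 360 min relative to 240 min (adjusted p = 2.3e-06, edgeR). NCU00729 (chromosome I) had 21.8, 22.6 and 21.7 CPM at 240 min, against 22.2, 22.0 and 22.4 CPM at 15 min. These libraries overlapped, and the difference was not called (-0.11 ± 0.14, adjusted p = 0.49, edgeR). The gene then reached 40.5, 48.2 and 47.3 CPM at 360 min. NCU16460 (chromosome I) reached 51.9, 59.8 and 61.8 CPM at 360 min, against 17.7, 16.6 and 20.5 CPM at 15 min. At 120 min its libraries disagreed, with 2.71, 2.73 and 12.3 CPM. The step of NCU16460 at 240 min relative to 120 min was 2.104 ± 0.42 (adjusted p = 0.0041, edgeR) and 3.25 without the high library (adjusted p = 2.3e-08), and the step at 360 min relative to 240 min was called without it (0.92, adjusted p = 3.3e-05) but not with it (0.92 ± 0.39, adjusted p = 0.079). The span of NCU16460 overlaps that of *ada-1* by 424 bp, and *ada-1* itself averaged 7.36, 10.6, 19.7 and 37.6 CPM at 15, 120, 240 and 360 min. NCU06334, NCU08447 and NCU11338 also returned by large factors. NCU06334 (chromosome IV) had 19.4, 18.6 and 19.96 CPM at 360 min, against 4.86, 6.02 and 6.64 CPM at 240 min (1.53 ± 0.26, adjusted p = 0.00062, edgeR), and NCU08447 had 2.81, 2.70 and 3.05 CPM, against 0.848, 0.951 and 0.711 CPM (1.57 ± 0.41, adjusted p = 0.0084, edgeR). NCU11338 had 7.57, 26.8 and 12.7 CPM at 360 min, against 2.87, 3.09 and 4.10 CPM at 240 min (2.00 ± 0.35, adjusted p = 0.00066, edgeR), with replicate 2 highest.

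The earliest return was that of a noncoding RNA gene. NCU14047 had 10.8, 8.68 and 14.5 CPM at 15 min, 0.288, 0.446 and 0.335 CPM at 120 min, 11.2, 6.99 and 9.94 CPM at 240 min, and 7.14, 9.16 and 11.7 CPM at 360 min. The 120 min libraries stood alone, and the other 3 stages overlapped. At 240 min it was upregulated by 4.68 ± 0.28 relative to 120 min (adjusted p = 1.4e-06, edgeR), which was the highest value among the 70 genes, and it was called neither at 360 min relative to 240 min (-0.21 ± 0.21, adjusted p = 0.45) nor at 240 min relative to 15 min (-0.36 ± 0.21, adjusted p = 0.13). Its span lies wholly within that of the protein-coding gene NCU02819, with 116, 42.6, 52.9 and 79.4 CPM at the 4 stages. The libraries were stranded and aligned as such, but the sources here do not say how reads of overlapping genes were assigned, so the split of counts is uncertain.

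**Figure D4:**
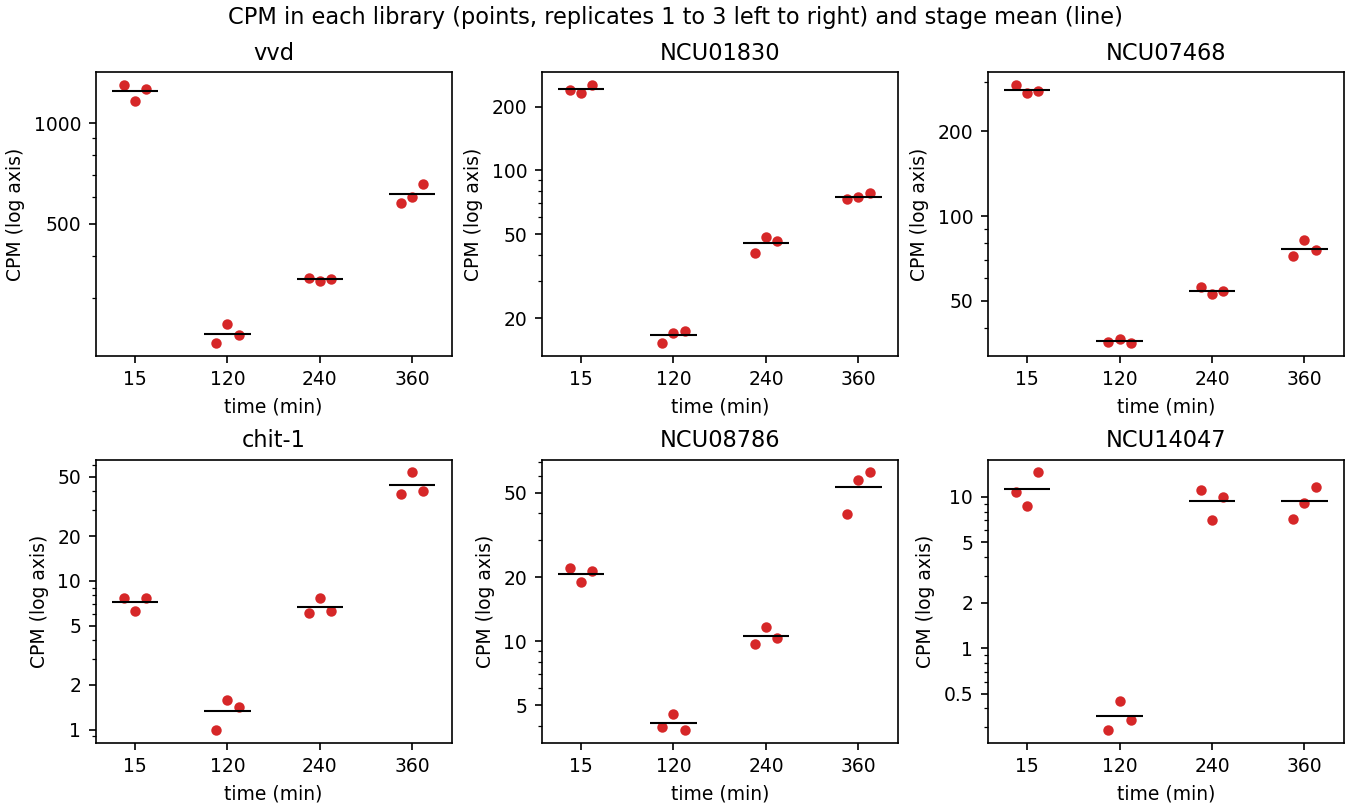
CPM in each library (points, replicates 1 to 3 from left to right, log axis) and the mean of each stage (line) for 6 returning genes at 15, 120, 240 and 360 min. The 360 min libraries of *chit-1* and NCU08786 lay above all 15 min libraries, those of *vvd*, NCU01830 and NCU07468 lay below them, and NCU14047 was low at 120 min alone.

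At the late end, 4 genes had a share at or under 0 (NCU00766, NCU02261, NCU04605 and NCU09057), so that the whole return lay after 240 min. NCU02261 had 2.13, 3.15 and 2.41 CPM at 240 min, against 2.72, 3.00 and 2.21 CPM at 120 min, and 3.82, 7.23 and 6.25 CPM at 360 min (0.97 ± 0.21 relative to 240 min, adjusted p = 0.0027, edgeR). NCU09041, next in order, had 1.06, 1.45 and 1.32 CPM at 240 min and 1.58, 6.67 and 3.82 CPM at 360 min (1.44 ± 0.37, adjusted p = 0.0075, edgeR). For the other 3 of the 4 the 360 min mean rested on 1 library. NCU07827, whose share of 0.667 was among the 5 highest, was called in neither interval, with 2.31, 1.18 and 2.79 CPM at 360 min, against 1.51, 1.55 and 1.82 CPM at 240 min.

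In 8 of the 70 genes, 1 library at 360 min was at least 3 times both others and at least 5 CPM. Replicate 2 was the high library for NCU03078, NCU04314, NCU05498 and NCU08330. NCU05498 had 0.806, 31.2 and 1.57 CPM at 360 min, against 0, 0.753 and 1.38 CPM at 120 min, and NCU08330 had 1.06, 23.7 and 2.63 CPM, against 0.921, 1.45 and 1.02 CPM. NCU03078 had 3.98, 36.2 and 7.63 CPM, against 1.01, 2.89 and 4.46 CPM, and NCU04314 had 1.71, 22.9 and 3.81 CPM, against 0.576, 1.21 and 1.22 CPM. Each of these 4 was called upregulated at 360 min relative to 240 min (adjusted p 0.023 to 0.045, edgeR), and none was called without replicate 2 (log2 fold changes of 0.55 for NCU03078, 0.15 for NCU04314, 0.19 for NCU05498 and 0.28 for NCU08330). Over all genes, replicate 2 was high in this way for 9, which also included *adh-1*, for an alcohol dehydrogenase, with 9.73, 106 and 18.2 CPM, and *cfp* with 51.6, 271 and 71.0 CPM.

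Replicate 3 of 360 min was the high library for NCU00766, NCU04605, NCU09057 and NCU15828. NCU04605 had 1.04, 1.53 and 16.4 CPM at 360 min, against 1.68, 1.42 and 1.26 CPM at 120 min, and its log2 fold change at 360 min relative to 240 min was 2.24 ± 0.78 (adjusted p = 0.036, edgeR) but -0.10 without that library. NCU04606, which overlaps NCU04605 by 716 bp, averaged 57.6, 59.2, 56.6 and 60.7 CPM at 15, 120, 240 and 360 min, so the split of counts is uncertain. NCU09057 had 1.74, 1.40 and 16.8 CPM at 360 min, against 1.31, 1.84 and 1.91 CPM at 120 min, and NCU00766 had 2.62, 2.85 and 13.01 CPM, against 3.34, 2.47 and 2.58 CPM. NCU15828 is annotated as a ribosomal RNA gene that shares its span with 4 other ribosomal RNA genes. It had 69.8, 110 and 9.87 CPM at 15 min, 11.6, 12.3 and 12.1 CPM at 120 min, 14.5, 17.5 and 22.8 CPM at 240 min, and 19.8, 9.25 and 73.3 CPM at 360 min. Its high libraries were those with 5.53, 10.2 and 11.7% of counts in ribosomal RNA genes, and the part of the ribosomal RNA share in its pattern was not tested. Replicate 3 was high in this way for 13 genes in all, while in the 9 libraries of the other stages the number was at most 3.

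**Figure D5:**
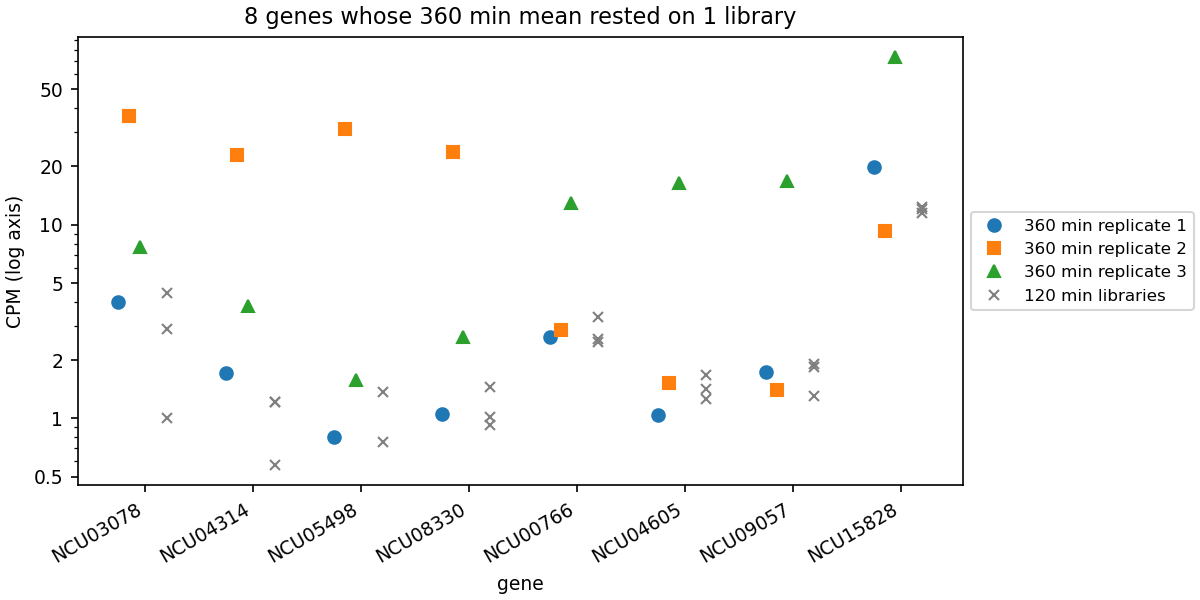
CPM (log axis) of the 8 genes in the 3 libraries at 360 min (colored symbols) and at 120 min (gray crosses, with a count of 0 for NCU05498 not drawn). In the first 4 genes replicate 2 stood above all other libraries drawn and in the last 4 replicate 3 did, while the other 360 min libraries mostly lay near the 120 min level.

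Without these 8 genes, 62 were left, and 37 were upregulated at 240 min relative to 120 min, 54 at 360 min relative to 240 min, and 58 were lower at 240 min than at 15 min. The unevenness between 360 min libraries went beyond them. Replicate 1 was the lowest 360 min library for 50 of the 70 genes, and the median CPM of the 70 genes was 7.13, 10.4 and 11.3 in replicates 1, 2 and 3. The SD at 360 min was a median of 15.5% of the mean over the 70 genes, against 9.78% over all tested genes. These medians were 6.42 and 6.50% at 15 min, 14.3 and 6.14% at 120 min, and 10.5 and 4.58% at 240 min. The wider spread of the 70 genes was thus not particular to 360 min, but it was absent at 15 min. Their median level was 18.1 CPM at 15 min, against 2.68, 3.57 and 9.66 CPM at 120, 240 and 360 min. Spread was not compared between genes of matched level. All 3 libraries at 360 min were above all 3 at 120 min for 62 of the genes, and all 3 were at least 2 times the 120 min mean for 39.

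The returning genes were spread over all 7 chromosomes, from 7 genes on VII to 13 on IV, with NCU15828 on an unplaced contig, and 68 were protein coding. None lay directly beside another, while 18.9% of the 412 genes that stayed low had a direct neighbor in their own, longer list. Besides NCU01830 and NCU01829, pairs within 3 steps along the annotation were *vvd* with NCU17113 on chromosome VI and NCU08449 with NCU08447 on chromosome II. Of the genes between them, NCU03968 stood at 17.6, 11.96, 12.5 and 13.2 CPM beside *vvd*, and NCU08448 stood at 7.45, 5.45, 7.52 and 12.1 CPM between NCU08449 and NCU08447. The span of the returning genes had a median of 1978.5 bp, against 2497.5 bp for genes that stayed low and 2330 bp for all tested genes. In 31.4% of them the span overlapped that of another gene, where the split of counts is uncertain, against 27.0% of all tested genes.

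The edge of the rule was crowded. Just inside the limit on the 360 to 120 min ratio were NCU07287 (2.01) and *nit-3* (2.05), and just outside it *acd-2* (1.98) and NCU05490 (1.95), with 256 genes failing that criterion alone. At the limit on the 15 to 120 min ratio, NCU16460 (3.10) and NCU00299 (3.13) were inside and *acu-15* (2.96) and NCU07259 (2.95) outside. At the limit of 5 CPM at 15 min, NCU08447 (5.31 CPM) and NCU04774 (5.52 CPM) were inside and NCU04635 (4.93 CPM) and NCU00338 (4.64 CPM) outside. At the limit of 2 CPM at 360 min, NCU07827 (2.09 CPM) and *nit-3* (2.25 CPM) were inside and NCU07063 (1.44 CPM) and NCU00695 (1.38 CPM) outside. For the level at 360 min relative to 15 min, NCU06364 (13.2%) and *nuo14.8* (15.0%) were inside and NCU16012 (11.4%) and NCU07257 (7.86%) outside.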

How the data were processed

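Reads of stranded libraries were mapped by the authors with HISAT2 2.1.0 to the OR74A genome (version 12) and counted per annotated gene with StringTie 1.3.3b and its prepDE script (versions from the submitters' processing notes, which also name CASAVA 1.8.2); the deposited counts are whole numbers without normalization. A second deposited file, which holds the authors' own relative expression per stage with intervals, was not used. CPM was computed from library totals. Stages were compared with edgeR 4.0.16 (R 4.3.3): TMM factors, filterByExpr, a mean for each of the 4 stages fitted to 12 libraries together, quasi-likelihood tests, two-sided, with Benjamini-Hochberg adjustment over 8118 genes at 0.05; DESeq2 1.42.0 was an alternative. The steps were tested on simulated data. Members and lists were chosen with earlier results of these data known. Named genes were the 10 highest at 360 min, the 10 with the highest ratio of 360 to 120 min, the 5 highest and 5 lowest in share of return, members of 2 symbol lists and genes at the limits; a further part by product class could not be applied without product names. The families *acw*, *ncw*, *chit*, *gh18*, *nuo*, *aod*, *nde*, *ndi*, *nit* and *acd*, *thi-4*, genes high in 1 library, near pairs, and the remaining named genes were added after their values were seen. Symbols, positions and spans came from a RefSeq gene table of assembly NC12, where 10590 of 10592 IDs matched. Protein products, proteins and promoters were not used here.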

Additional observations from a re-analysis of the deposited data

How the results depend on the processing

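The rule depended on scaling and on the 360 min libraries. With TMM-scaled CPM it took 49 genes, 46 of them among the 70, and with the median of 3 libraries 59 (56 among the 70). With a 4-fold fall and a 3-fold return it took 29. Leaving out 1 library gave 58 to 75 genes; without 360 min replicate 3, 13 of the 70 were lost, 6 were lost without 360 min replicate 2, and 49 met the rule whichever library was left out. Chosen after seeing the data, CPM over protein-coding totals gave 77 genes, all 70 included. The median share of return at 240 min was 0.34 to 0.39 under every alternative run, including 0.5 CPM as the added value.

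Called genes numbered 32 to 41 (240 relative to 120 min), 49 to 62 (360 relative to 240 min) and 64 to 67 (240 relative to 15 min) when 1 library was left out. The replicate numbers did not pair the libraries, since deviations of same-numbered libraries correlated at -0.08 to 0.17 with 3 of 18 over 0.1. With the replicate number as a block, 37, 54 and 66 genes were called. With DESeq2 41, 55 and 64 were called, with 4 genes lacking an adjusted p. Upper-quartile scaling in place of TMM gave 36, 60 and 69 called genes. Fits of only the 2 stages compared called 45, 50 and 68 genes, of which 1 (NCU16460) was higher at 240 than at 15 min.

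Of 2309 values of single genes under alternatives, 59 lost the call and 18 changed sign. All 18 came from leaving out 1 library, and only NCU04605 at 360 relative to 240 min had been called (-0.10 without 360 min replicate 3). Over the libraries left out, log2 fold changes that crossed 0 ranged as follows: at 240 relative to 120 min, NCU02261 (-0.26 to 0.035), *wc-1* (-0.34 to 0.45), NCU03078 (-0.13 to 0.81), NCU05498 (-0.27 to 1.24), *nit-4* (-0.016 to 0.073), NCU09041 (-0.14 to 0.18) and NCU09057 (-0.21 to 0.11), and at 360 relative to 240 min, *acd-3* (-0.031 to 0.145), NCU04605 (-0.10 to 2.74), *ncw-3* (-0.026 to 0.41), NCU07827 (-0.085 to 0.47), NCU09057 (-0.29 to 2.29) and NCU15828 (-0.51 to 1.17). The cause was not tested.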

Other observations

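Within the predicted SMCs, 3 genes met every expression criterion of the returning genes: *acw-10*, *fbp-1* and NCU01424. *acw-10*, for an anchored cell wall protein, averaged 15.3 ± 1.37 CPM at 15 min, 4.80 ± 2.32 CPM at 120 min, 11.5 ± 1.64 CPM at 240 min and 35.1 ± 4.87 CPM at 360 min (SD, n = 3).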
